A study of Mus musculus with 4 samples.

Results

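Hox genes encode homeodomain transcription factors that sit in 4 clusters, A to D, in the mouse genome. Within a cluster the genes are numbered into 13 paralogue groups from the 3′ end, and genes with low numbers are known to be switched on earlier and further forward in the embryo than genes with high numbers, a relation called collinearity. The combination a cell expresses marks its position along the head to tail axis. Cdx factors, Wnt, Fgf and retinoic acid signals and Gdf11 are known to set this code, and Pbx and Meis proteins are partners of Hox proteins on DNA. In the heart, Hox genes of the first groups are known from the posterior second heart field, which gives rise to the inflow of the heart.

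The members were chosen by gene symbol: 38 coding Hox genes of the 32286 features counted at days 4 to 6 and of the 32287 counted at day 11. Of these, 10 belong to cluster A, 10 to cluster B, 9 to cluster C and 9 to cluster D. The study grew gastruloids, aggregates of mouse embryonic stem cells, from the wild-type line Zx1, gave them the Wnt agonist Chiron at first and then basic FGF, VEGF and ascorbic acid, which are known to favour heart formation, and sequenced single cells of 1 library per day at days 4, 5, 6 and 11. All 4 groups share the line and the culture protocol, and no changed allele is named for any of them in the paper or labels. Basic FGF, VEGF and ascorbic acid were added from day 4 and withdrawn before day 11. The groups were therefore taken at different steps of the protocol. Several gastruloids were pooled in a library. With 1 library per day no test between days is possible. Day, library, time with or after the added factors, sequencing depth and, for day 11, software version cannot be told apart. Intervals in the text are at 95% and cover counting error only.

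After filters, 6555, 6457, 5254 and 7854 cells were kept at days 4, 5, 6 and 11, with medians of 24173, 28025, 24654.5 and 11396.5 UMIs per cell. Between 5 and 23 barcodes were shared by any 2 libraries, at most 0.295% of the smaller one. Levels are in CPM: all UMIs of a gene in a set of cells, scaled to 1000000 UMIs of that set. The libraries were counted from the 3′ ends of transcripts, so these levels are not divided by gene length. Levels of different genes are set side by side only as UMIs found, since capture differs between genes.

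The clusters lie on 4 chromosomes (GRCm38, which is mm10). Cluster A was measured from Hoxa2 to Hoxa13 on chromosome 6 between positions 52162417 and 52260880, cluster B from Hoxb1 to Hoxb13 on chromosome 11 between 96194316 and 96368256, cluster C from Hoxc4 to Hoxc13 on chromosome 15 between 102921103 and 103036852, and cluster D from Hoxd1 to Hoxd13 on chromosome 2 between 74668310 and 74765142. All members of cluster A are on the minus strand and all others on the plus strand. In GENCODE vM21, 4 of the 38 genes (Hoxa2, Hoxd3, Hoxd4 and Hoxd10) share the last 1000 exonic bases with another gene of the same strand, so part of their reads may not be assigned to them, and 6 (Hoxa3, Hoxa4, Hoxa7, Hoxb2, Hoxb3 and Hoxd3) overlap an antisense gene there.

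RefSeq promoters (GRCm38.p6) were at hand for 22 of the 38 genes, 24 starts in all. They were searched on both strands for TTTATG, a form of the core bound by Cdx proteins, in the 250 bases before the start. The motif was found in 5 of the 24 windows (20.8%), against 10.8% of the 32851 promoters of the table. It occurred at least 2 times in the windows of Hoxa7 and Hoxb8 and in 1.02% of all promoters. Both windows are shown because these genes were among those with high levels in the Cdx2-rich T-high cells described below, and the window of Hoxb1, with no match there, is shown beside them as that of a gene which was also high in T-high cells but had its highest level at day 4. Capitals mark the motif or its reverse complement, and each sequence is written 5′ to 3′ on the strand of its gene.
Hoxa7 (chr6:52218574-52218823, minus strand): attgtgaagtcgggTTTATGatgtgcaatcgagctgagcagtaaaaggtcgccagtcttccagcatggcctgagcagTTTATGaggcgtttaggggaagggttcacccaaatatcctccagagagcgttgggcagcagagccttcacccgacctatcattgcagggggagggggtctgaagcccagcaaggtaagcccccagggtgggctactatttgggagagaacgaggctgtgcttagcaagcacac
Hoxb8 (chr11:96281655-96281904, plus strand): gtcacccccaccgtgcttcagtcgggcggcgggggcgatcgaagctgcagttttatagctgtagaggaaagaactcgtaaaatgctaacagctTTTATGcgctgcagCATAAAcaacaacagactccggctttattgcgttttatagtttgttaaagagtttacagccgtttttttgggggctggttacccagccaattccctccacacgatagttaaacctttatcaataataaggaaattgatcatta
Hoxb1 (chr11:96365508-96365757, plus strand): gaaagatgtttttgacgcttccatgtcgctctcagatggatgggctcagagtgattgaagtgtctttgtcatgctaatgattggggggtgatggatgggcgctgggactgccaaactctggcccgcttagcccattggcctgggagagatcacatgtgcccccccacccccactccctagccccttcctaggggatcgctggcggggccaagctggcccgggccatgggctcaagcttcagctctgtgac
A match describes these letters and says nothing of binding. Many members called higher in T-high cells of day 6 had no match in their windows. These were Hoxa3, Hoxa9, Hoxa10, Hoxa11, Hoxb4, Hoxc4, Hoxd1, Hoxd9, Hoxd10 and Hoxd13, beside Hoxb1. Of the other genes with a match, Hoxd4 and Hoxd11 were called higher in these cells and Hoxd3 was not. Whether the motif goes with these levels was not tested. The start used for Hoxa7 is that of RefSeq, which lies inside the gene as GENCODE draws it.

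The first question was how the Hox code unfolded over days in the whole aggregate. Summed over the 38 genes, the level was 309, 302, 801 and 709 CPM at days 4, 5, 6 and 11. The first pair of days was close, with a ratio of 0.978 (interval 0.967 to 0.989), whereas day 6 was 2.65 times day 5 (2.62 to 2.68) and day 11 was 0.886 times day 6 (0.878 to 0.894). The last order turned with the weighting: averaged over cells, each with its own CPM and equal weight, the sum was 735 at day 6 and 842 at day 11. The share of cells with a Hox UMI, after each cell was thinned at random to 5000 UMIs to set depths equal, was 57.5%, 59.2%, 80.9% and 69.8% on these days, and 82.2%, 87.9%, 96.3% and 81.7% without thinning. The composition of the aggregate also changed between days, so these sums mix the level per cell with the kinds of cells present.

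The makeup of the sum moved from anterior to posterior genes. Groups 1 to 3 held 186, 128, 197 and 99.5 CPM, groups 4 to 8 held 84.4, 129, 367 and 352 CPM and groups 9 to 13 held 38.9, 44.9, 236 and 258 CPM. Thus groups 1 to 3 made up 60.1% of Hox UMIs at day 4 and 14.03% at day 11, and groups 9 to 13 made up 12.6% and 36.3%. The clusters did not move together. Cluster B, which held 70.7% of Hox UMIs at day 4, was at 219, 189.7, 356 and 262 CPM. Cluster C was at 20.8, 37.9, 191 and 233 CPM, cluster A at 31.4, 35.5, 135 and 157 CPM and cluster D at 38.3, 39.1, 119 and 57.5 CPM. Between days 6 and 11 the sums of clusters A and C were higher, with ratios of 1.16 (1.14 to 1.19) and 1.22 (1.20 to 1.24), and those of clusters B and D lower, with ratios of 0.736 (0.726 to 0.747) and 0.484 (0.470 to 0.498).

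**Figure D1:**
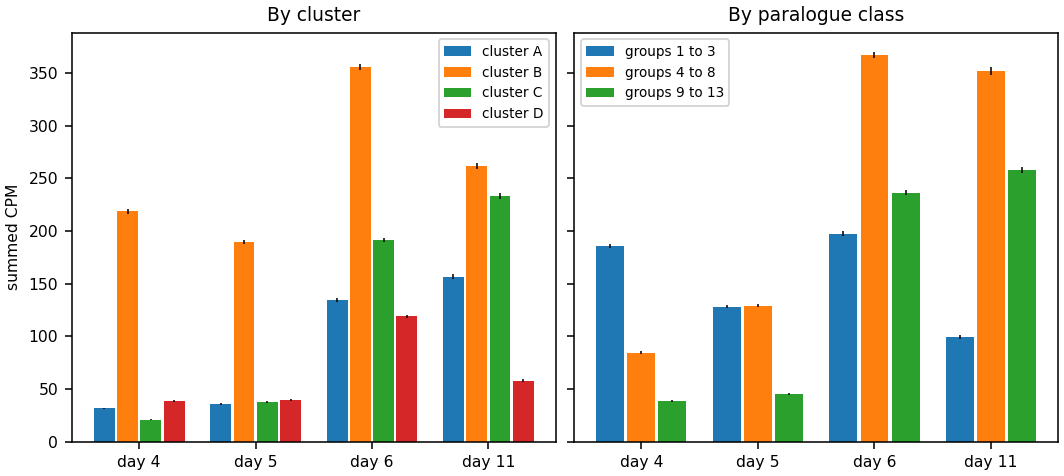
Summed CPM of Hox genes by cluster (left) and by paralogue class (right) at days 4, 5, 6 and 11; bars are 1 library each and error bars are exact Poisson intervals at 95%. Cluster B was the largest at day 4 with 219 CPM and cluster C stood at 233 CPM at day 11, while groups 1 to 3 went from 186 to 99.5 CPM.

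Group 1, the most anterior, had an early course of its own. Hoxb1, which is known to pattern the hindbrain and to mark posterior heart progenitors, was at 71.8, 18.3, 12.2 and 0.406 CPM, so it was high at day 4 and nearly gone by day 11, where it was 0.0332 times its level at day 6 (0.0242 to 0.0444). Hoxd1 was at 9.30, 3.25, 3.08 and 0.591 CPM, in the same order of days. Hoxb2, the neighbour of Hoxb1 and also a hindbrain gene, was at 77.2, 79.7, 99.7 and 34.2 CPM. It was the member with the most UMIs at days 4, 5 and 6. The other genes of groups 2 and 3 (Hoxa2, Hoxa3, Hoxb3, Hoxd3) were at 1.99 to 13.8 CPM at day 4 and 13.5 to 33.9 CPM at day 6.

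Groups 4 to 8, known from the neck and thorax, had higher levels at day 6 than at day 5 in all 15 genes, 12 of them past the 2-fold threshold given below, which 12.2% of all features measured passed in this direction. Hoxb4 was at 20.3, 23.3, 62.3 and 53.2 CPM, Hoxc6 at 3.79, 6.70, 44.4 and 47.5 CPM, and Hoxc4, which the study stained as a posterior marker, at 4.11, 3.70, 18.1 and 23.4 CPM. Hoxd4 was at 7.78, 8.77, 38.9 and 21.9 CPM, and so was lower again at day 11, unlike Hoxc5 with 0.766, 2.47, 6.69 and 15.1 CPM and Hoxa5 with 7.38, 6.86, 15.1 and 24.2 CPM. Hoxb8 was at 10.1, 19.7, 37.3 and 31.0 CPM and Hoxb6 at 6.01, 10.8, 14.5 and 8.68 CPM.

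Group 9 was already present at day 4, with 33.2 CPM, and group 10 was low, with 2.86. Hoxb9 was at 11.3, 8.46, 59.8 and 55.8 CPM and Hoxd9 at 14.3, 16.5, 31.8 and 16.5 CPM, and Hoxa9 was at 3.70, 5.73, 29.9 and 52.0 CPM. Hoxc10, known from the lumbar region, was at 1.44, 1.07, 44.5 and 51.8 CPM, and its level at day 6 was 41.5 times that at day 5 (36.2 to 47.8). Hoxa10 was at 1.13, 1.26, 13.6 and 15.3 CPM and Hoxd10 at 0.290, 0.546, 6.87 and 0.847 CPM, the latter low again at day 11. Hoxa11 and Hoxd11 were at 2.21 and 5.74 CPM at day 6. The last genes were close to the limit of detection. Hoxa13, Hoxb13, Hoxc11, Hoxc12, Hoxc13, Hoxd12 and Hoxd13 were below 1 CPM on every day, and Hoxc12 and Hoxc13 had no UMI in the 7854 kept cells of day 11.

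**Figure D2:**
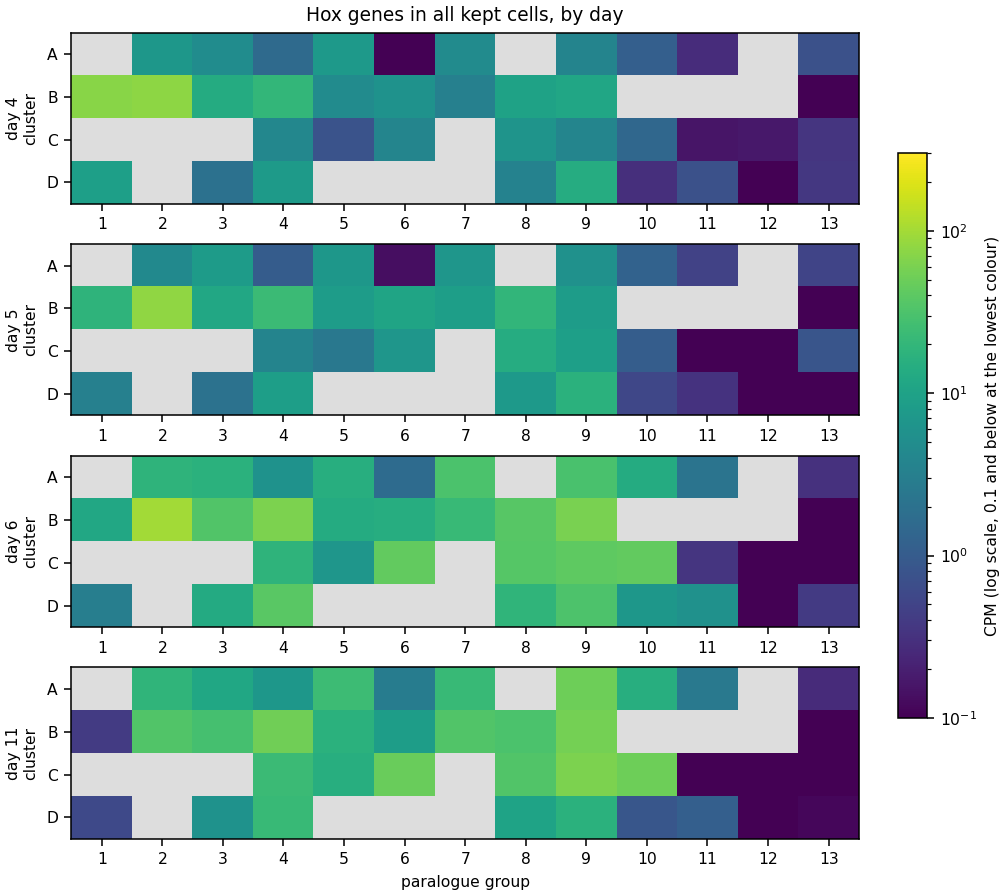
CPM of each Hox gene (colour, log scale) in all kept cells at days 4, 5, 6 and 11; rows are clusters A to D, columns paralogue groups 1 to 13, and grey marks positions with no gene analysed here. High levels sit in groups 1 and 2 of cluster B at day 4 and reach group 10 at days 6 and 11. Groups 12 and 13 stay near the dark end of the scale, while group 11 summed to 8.29 CPM at day 6.

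A gene is called here when its CPM plus 1 differed at least 2 times between libraries and it had at least 1 CPM in 1 of them. Between days 4 and 5, 3 of the 27 members that could be called (Hoxb7, Hoxc8 and Hoxc9) were higher at day 5, against 8.35% of the 12953 features so measured, and 2 (Hoxb1 and Hoxd1) were lower, against 3.84%. Between days 5 and 6, 23 of 31 were higher, against 12.2% of features, and 0 were lower, against 5.7%. The median log2 difference of the 31 was 1.38 and that of all features 0.17. Between days 6 and 11, 1 of 31 (Hoxc5) was higher, against 12.4%, and 6 (Hoxb1, Hoxb2, Hoxd1, Hoxd3, Hoxd10 and Hoxd11) were lower, against 3.66%. The step at day 6 was thus shared by most members and the later step by few. The 3 genes higher at day 5 and the 1 higher at day 11 lay near the threshold: with 5 in place of 1 added to the CPM, 0 were called in either.

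The second question was in which cells the code was found. Cells were taken as high for a marker gene when they held at least 2 UMIs and 150 CPM of it, or 2000 CPM for Myl7. The 5 main marker genes were Sox2, of neural and pluripotent cells; Meox1, of somites; T, or Brachyury, of the primitive streak and tailbud; Twist1, of mesenchyme; and Myl7, a myosin light chain of heart muscle. A cell could be in several of these sets: at day 6, 179 cells were both Twist1-high and Myl7-high and 102 both Meox1-high and Twist1-high. The limits cut through a range. At day 6, 816 cells had Twist1 below the limit by less than a factor of 2 and 924 above it by less than this factor; these numbers were 324 and 223 for Meox1, 131 and 152 for Sox2, 38 and 28 for T, and 136 and 125 for Myl7. Medians over cells of the other marker genes in each set were at 0 in most sets, with exceptions such as 86.9 CPM of Twist1 in Myl7-high cells and 75.6 CPM in Meox1-high cells of day 6.

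The 5 main sets were checked against markers that they were not chosen by. Further sets used below, such as Cdh5-high, Epcam-high, Elavl3-high and Myog-high cells, rest on 1 gene each. No such check is given for them, so their cell type names follow from that gene alone. T-high cells of day 6 carried all 6 of their markers at 2 or more times the level of other cells, among them Fgf8 at 454 against 11.4 CPM and Tbx6 at 86.1 against 2.01. T-high cells of days 4 and 5 carried 5 and 6 of these. Myl7-high cells carried all 6 of theirs at days 6 and 11, Sox2-high cells of both days 4 of 5, and Twist1-high cells 3 of 5 mesenchymal markers at day 6 and 4 of 5 at day 11. Meox1-high cells carried 4 of 6 somite markers at day 6 but 1 of 6 (Meox2) at day 11, where their Col1a2, a fibroblast collagen, was at 252 CPM against 159; the day 11 cells are therefore named by the gene alone. Sox2-high cells of days 4 and 5 were mostly pluripotent: Dppa5a, a marker of embryonic stem cells, was at 3499 and 6156 CPM in them, and 267 of 337 and 172 of 190 passed the same limit for Dppa5a.

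At day 4 the anterior genes were highest in Twist1-high cells and the posterior genes in a few Sox2-high cells. The Twist1-high cells of this day carried 3 of 5 mesenchymal markers at 2 or more times the level of other cells. The others were Pdgfra, at 33.6 against 20.6 CPM, and Col1a2, at 0.636 against 0.859. In the 1309 Twist1-high cells Hoxb1 was at 128 CPM (124 to 131) against 56.8 in the other cells, a ratio of 2.25 (2.17 to 2.32). Hoxb2 was at 109 against 68.6 CPM and Hoxd1 at 18.7 against 6.78, while Hoxa9 was lower, at 1.002 against 4.43. In the 578 T-high cells the genes of the middle and end of the clusters were higher: Hoxb8 was at 42.9 against 7.27 CPM, Hoxc8 at 26.5 against 4.46 and Hoxb9 at 34.7 against 9.32, whereas Hoxb1 did not differ beyond counting error (ratio 0.982, 0.922 to 1.04).

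Sox2-high cells of day 4 held 344 CPM of Hox genes in all, and this mean hid a split. The 70 of them that did not pass the limit for Dppa5a held 1454 CPM (1398 to 1511). The 267 that passed it held 113 CPM (106 to 120.2). They are called cells without and with Dppa5a here, although cells below the limit may hold some Dppa5a. This split was made after the markers had been seen. T had a median of 40.6 CPM over the cells without Dppa5a and 0 over the others. The cells without Dppa5a carried a posterior code. Hoxb9 was at 173 CPM in them against 9.87 in all others. Groups 11 to 13, at 1.15, 0.171 and 1.51 CPM in the whole library of the day, were present: Hoxd11 was at 47.8 CPM (38.1 to 59.2), Hoxc12 at 12.0 (7.398 to 18.3), Hoxc13 at 9.11 (5.20 to 14.8) and Hoxd13 at 7.399 (3.94 to 12.7). These rest on 84, 21, 16 and 13 UMIs. Of the 33 UMIs of group 12 in the whole library, 21 lay in these 70 cells.

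At day 5 the T-high cells stood out. The 105 of them held 858 CPM of Hox genes (825 to 892) against 294 in the other cells. Hoxb8 was at 106 CPM in them against 18.4, Hoxc8 at 100.2 against 12.7, and Hoxc9 at 60.7 against 8.27. Groups 11 to 13 were at 1.70, 0 and 1.02 CPM. Twist1-high cells held 298 CPM, near the 303 of the others. The Sox2-high cells with Dppa5a held 20.2 CPM, with Hoxb2 at 1.54 against 79.7 CPM in the whole library; this is the lowest Hox sum of the sets measured at day 5, at a median of 32263 UMIs per cell. Meox1-high cells numbered 5 and Myl7-high cells 0, too few for values.

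**Figure D3:**
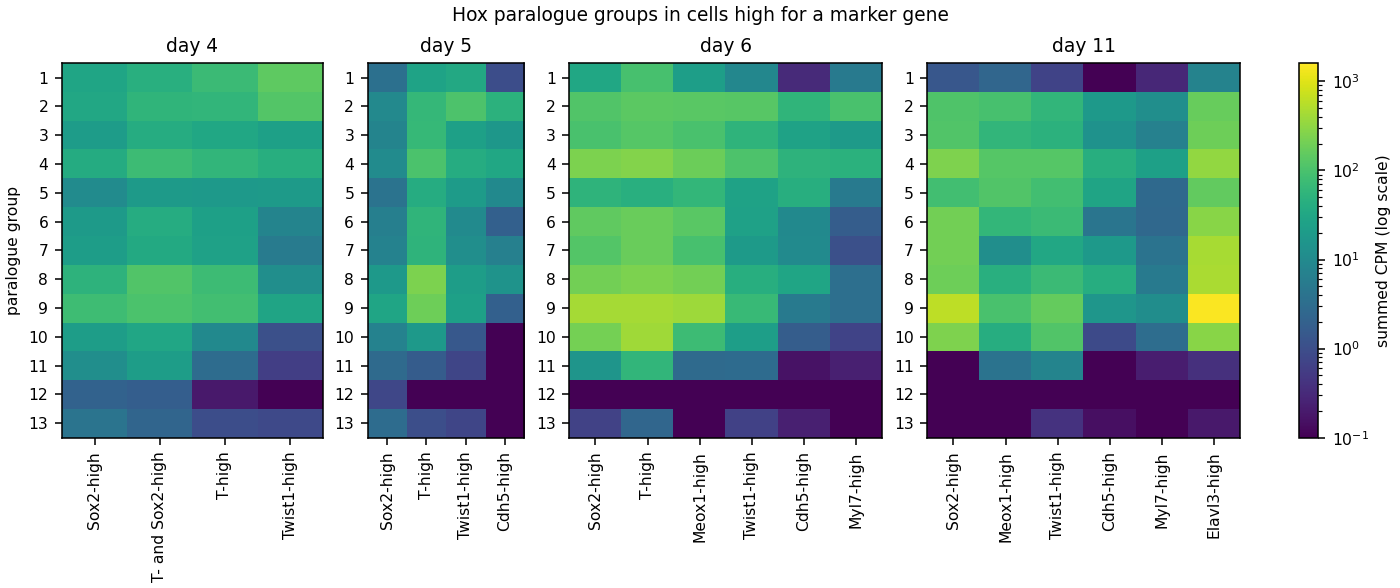
Summed CPM of each paralogue group (colour, log scale) in cells high for a marker gene, at days 4, 5, 6 and 11; rows are paralogue groups 1 to 13 and columns the sets of cells, which may overlap. At day 6 T-high cells held 402 CPM of group 10 against 0.692 in Myl7-high cells, and at day 11 Elavl3-high cells held 1528 CPM of group 9.

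By day 6 the Hox code differed widely between the sets. The summed level was 2165 CPM in T-high, 1672 in Sox2-high, 1404 in Meox1-high, 510.1 in Twist1-high and 189 in Myl7-high cells. The 95% intervals of these 5 sums did not overlap.

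T-high cells of day 6, 44 in all, had members from both ends of the clusters. Of the 33 members that could be called, 22 were higher in them than in the other cells, against 4.77% of features, and 0 were lower, against 14.8%. The median log2 difference of the 33 was 1.21 and that of all features -0.06. Late genes were among them. Hoxc10 was at 303 CPM (277 to 330.4) against 41.6, Hoxd11 at 47.3 against 5.27 and Hoxd10 at 38.2 against 6.53. The start of cluster B was present as well, with Hoxb1 at 80.7 CPM against 11.5, a ratio of 7.03 (5.85 to 8.40). Hoxa7 and Hoxb8, whose promoter windows are printed above, were at 118 and 102 CPM against 30.1 and 36.5; Hoxa7 overlaps the antisense RNA Hoxaas3, which was also high in these cells.

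The known upstream signals were found in these cells too. Of 11 regulators of Hox genes, 7 were called higher in T-high cells (Cdx1, Cdx2, Cdx4, Gdf11, Wnt3a, Fgf8 and Cyp26a1) and 3 lower (Aldh1a2, Rarb and Cyp26b1), beside the shares of all features just given. Cdx2 was at 297 CPM against 28.1, Cdx4 at 94.6 against 4.92 and Gdf11 at 67.3 against 21.2. Cyp26a1, which breaks down retinoic acid, was at 102 against 5.17, and Aldh1a2, which makes it, at 3.64 against 10.5. Of 8 Hox cofactors, 3 were lower (Meis1, Meis2 and Pbx3), 0 higher and 5 not called, beside 14.8% of features lower, with Meis1 at 7.88 against 75.1 CPM. Evx1, the gene next to Hoxa13, was at 35.2 against 1.66. Fgf8, Wnt3a and Cdx2 also served as markers of the T-high cells. By day 11 Cdx1, Cdx2, Cdx4 and Fgf8 were at 0, 0.520, 0 and 0.432 CPM in the whole library, and no cell was T-high.

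Sox2-high cells of day 6 had a posterior neural code. Of 31 members 16 were higher, against 4.95% of features, with Hoxb9 at 185 against 48.9 CPM, Hoxc10 at 154.9 against 34.9 and Hoxa9 at 92.7 against 24.4. The median log2 difference of the 31 was 1.03, against -0.05 for all features. Hoxb9 was the member with the most UMIs in them. Of these cells, 21 were still Dppa5a-high and held 88.1 CPM of Hox genes.

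Meox1-high cells of day 6 were highest in genes of the middle groups and group 9. Of 31 members 9 were higher, against 1.05%, namely Hoxa5, Hoxa9, Hoxb6, Hoxb8, Hoxb9, Hoxc5, Hoxc6, Hoxc8 and Hoxc9, and 1 (Hoxd11) was lower, against 7.31%. The medians of the log2 differences were 0.84 for the 31 and -0.05 for all features. Hoxb9 was at 153 CPM against 52.2, Hoxc9 at 110.3 against 35.3 and Hoxc8 at 98.5 against 31.4. Group 10 stood at 75.6 CPM, against 64.9 in the whole library and 402 in T-high cells, and group 11 at 2.79 against 8.29 and 58.8.

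Twist1-high cells of day 6, the largest set with 2090 cells, had 0 members higher, against 1.08% of features, and 14 of 31 lower, against 4.79%. Those lower were, with the exception of Hoxb1 and Hoxc4, genes of groups 6 to 11. Members had a median log2 difference of -0.87 and all features one of 0.02. Hoxb9 was at 18.4 CPM against 82.6 and Hoxc10 at 13.4 against 61.6, while Hoxb2 was at 110.3 against 93.9.

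Heart muscle cells kept a short anterior code that came from cluster B. In the 505 Myl7-high cells of day 6, 29 of 31 members were lower than in the other cells, against 9.31% of features. Members had a median log2 difference of -3.13 and all features one of -0.10. The 2 that were not lower by this rule were Hoxb2 and Hoxb4. Hoxb2 was at 93.0 CPM (87.9 to 98.4) against 100.3, a ratio of 0.927 (0.874 to 0.984), and Hoxb4, an anterior trunk gene, was at 44.9 (41.3 to 48.7) against 63.9. Hoxb3 was at 16.1 against 35.7 and Hoxb5 at 3.54 against 15.0. Beyond Hoxb5 the levels were near 0, with Hoxb9 at 1.15 against 65.3 CPM and Hoxc10 at 0.538 against 48.7. All of cluster C together was at 4.31 CPM against 209, and Hoxc4 at 0.923 against 19.7.

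In the whole library of day 6, Hoxb2 and Hoxc10 stood at 99.7 and 44.5 CPM, and in Myl7-high cells at 93.0 and 0.538. The part of free RNA in these values was not tested. Hoxb2 and Hoxb3 overlap the antisense RNA Hoxb3os, whose values are given below. With every deposited barcode used, doublets and low-quality cells included, the sum in Myl7-high cells was 298 in place of 189 CPM. Within these cells the 38 that also had at least 500 CPM of Shox2, an inflow and pacemaker gene, held 111 CPM of Hoxb2 (89.97 to 134) and 60.8 of Hoxb4 (45.8 to 79.2), and the 29 that also had at least 2000 CPM of Myl2, a ventricular gene, held 38.1 (26.5 to 52.9) and 6.53 (2.40 to 14.2). The intervals, which cover counting error only, do not overlap for either gene. These subsets differed in other ways too. Median Myl7 was 3877 CPM in the Shox2-high and 17304 CPM in the Myl2-high cells, and median Twist1 was 222 and 0 CPM. The part of this in the Hox values was not tested.

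**Figure D4:**
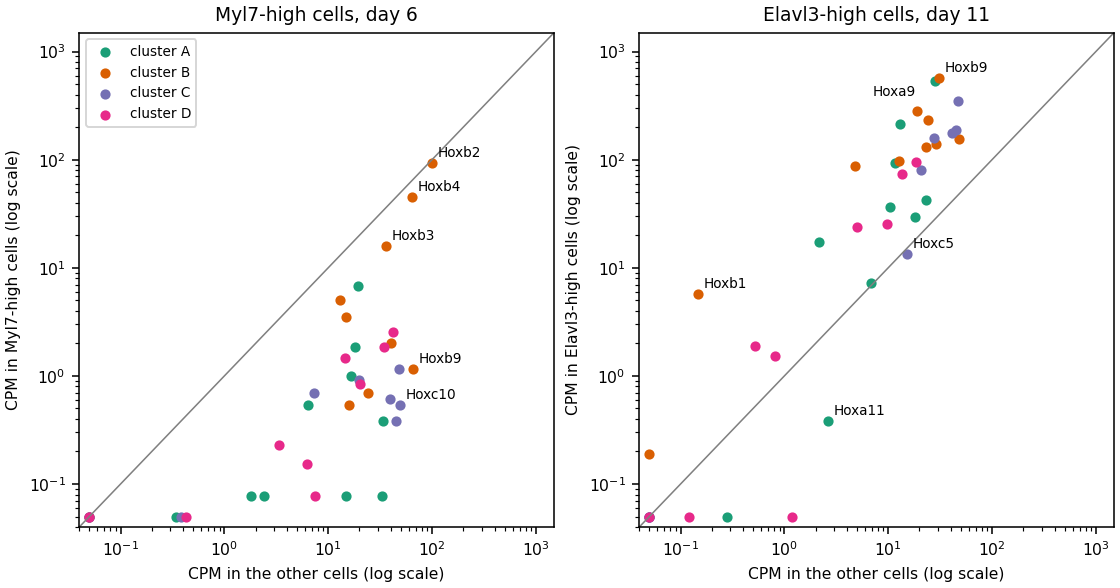
CPM of each Hox gene in Myl7-high cells of day 6 (left) and Elavl3-high cells of day 11 (right), on the vertical axis, against the other cells of the day; both axes are logarithmic, values below 0.05 are drawn at 0.05, colours mark the clusters and the line marks equal levels. Hoxb2, at 93.0 CPM, lies next to the line in Myl7-high cells and Hoxc10 far below it, and most genes lie above it in Elavl3-high cells, Hoxb9 at 568 CPM.

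Endothelial cells also held little of cluster C but more of the middle genes of the others. The 327 Cdh5-high cells of day 6 (Cdh5 is VE-cadherin) held 48.5 CPM of Hoxb2, 35.9 of Hoxb4, 27.6 of Hoxb5 against 12.7 in the other cells, and 19.2 of Hoxb8. Cluster C was at 4.34 CPM (3.27 to 5.65) in them, against 4.31 (3.25 to 5.59) in heart muscle cells, and at 5.00 (3.46 to 6.99) at day 11, while Hoxd4 was at 14.5 and Hoxa5 at 15.2 CPM at day 6. In the 281 Cdh5-high cells of day 11 Hoxd8 was at 20.004 CPM (16.8 to 23.7) against 9.93.

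Epithelial cells of day 6, like T-high cells, reached the end of cluster D. Hoxd11 and Hoxd13 were both called higher in T-high cells of that day. In the 173 Epcam-high cells Hoxd11 was at 35.6 CPM against 4.31 and Hoxd13 at 4.55 (3.09 to 6.46, 31 UMIs) against 0.189. Hoxa7 was at 87.7 against 28.3, whereas Hoxb1 was at 1.32. The 270 Wt1-high cells, a gene of the body cavity lining, held 992 CPM of Hox genes, with Hoxb9 at 90.4 but Hoxc10 at 14.1 against 45.8. The 201 Tcf21-high cells held 511 CPM, with Hoxb9 at 18.3 and Hoxc10 at 0.462.

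At day 11 the neural cells had the highest Hox levels. Sox2-high cells, 640 in all of which 638 were not Dppa5a-high, were at 2021 CPM (1994 to 2048) against 573. Of 29 members 19 were higher, against 7.58% of features, and 2 (Hoxa11 and Hoxd11) lower, against 16.8%, with Hoxb9 at 228 against 37.9 CPM, Hoxc10 at 213 against 35.2 and Hoxb7 at 141 against 22.9. The median log2 difference was 1.57 for the 29 and -0.03 for all features. The 475 Elavl3-high cells, in which the marker is a neuronal RNA-binding protein, had the highest sum of the sets measured on any day, 3868 CPM (3815 to 3921). Hoxb9 was at 568 CPM in them against 31.0, Hoxa9 at 539 against 28.4 and Hoxb8 at 282 against 18.8, while Hoxc5 did not differ beyond counting error (13.4 against 15.2, ratio interval 0.683 to 1.12).

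In both neural sets the code ended sharply after group 10. Group 10 was at 249 CPM in Sox2-high and 283 in Elavl3-high cells, and group 11 at 0.0940 and 0.382. Hoxa11 had 1 UMI in the 640 Sox2-high cells and 2 in the 475 Elavl3-high cells, and Hoxd11 had 0 in both, which allows levels of up to 0.282 and 0.573 CPM. In Sox2-high cells of day 6 group 11 had been at 15.8 CPM. Hoxb1, absent nearly everywhere at day 11, was at 5.73 CPM (3.86 to 8.17) in Elavl3-high cells against 0.148 in the others, from 30 of the 46 Hoxb1 UMIs of the library. Among further sets of day 11, the 39 Sox10-high cells, a neural crest gene, held Hoxb9 at 166 CPM (139 to 197) and group 11 at 0.

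Mesenchymal cells of day 11 differed from neural cells in which posterior genes they held. Twist1-high cells, 1952 in all, were at 789.8 CPM against 687. Of 29 members 3 were higher (Hoxa11, Hoxc5 and Hoxc10), against 2.41% of features, and 3 lower (Hoxb6, Hoxb8 and Hoxb9), against 8.48%, with medians of the log2 difference of 0.33 for members and 0.05 for all features. Hoxa11 was at 6.17 against 1.54 CPM, Hoxc5 at 32.1 against 10.4 and Hoxb9 at 21.2 against 65.3. Cluster C made up 45.7% of their Hox UMIs and cluster B 24.7%, against 24.9% and 44.0% in Elavl3-high cells.

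The 104 Meox1-high cells of day 11 had 5 of 30 members higher (Hoxa2, Hoxa5, Hoxa6, Hoxd1 and Hoxd10), against 3.38% of features, and 6 lower (Hoxa7, Hoxb7, Hoxb8, Hoxb9, Hoxc10 and Hoxd11), against 12.7%. On the log2 scale the median difference was 0.24 for the 30 and -0.01 for all features. Hoxa5 was at 62.7 CPM (49.6 to 78.2) against 23.7 and Hoxb9 at 7.23 (3.31 to 13.7) against 56.4. The calls of Hoxd1 and Hoxd10 rest on 3 and 4 UMIs, and with the cells of several sets left out Hoxd1 was on the lower side. Muscle cells held a low code: the 110 Myog-high cells were at 242 CPM, with Hoxb9 at 1.97 but Hoxd8 at 34.2 (27.4 to 42.2) against 9.99. The 88 Pax7-high cells, which may be muscle or neural progenitors, were at 825 CPM.

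Myl7-high cells of day 11, 1348 in all, held 74.0 CPM of Hox genes (70.8 to 77.3) against 911, and 28 of 29 members were lower, against 20.8% of features. The median log2 difference was -3.43 for the 29 and -0.31 for all features. Hoxb4 led with 21.0 CPM (19.3 to 22.8) against 63.5, followed by Hoxb2 with 10.4 against 41.7. Hoxb3, at 4.77 CPM against 35.4, and Hoxc9, at 3.81 against 79.5, came next. As at day 6, the part of free RNA in these values was not tested. With every deposited barcode used the sum was 155.1 CPM. Myeloid cells, marked by Tyrobp and 59 in number, held 37.0 CPM (28.1 to 47.8), the lowest sum of the sets measured that day. The Myl7-high cells of day 11 that were also Shox2-high, 388 in number, and those also Myl2-high, 320, held 21.5 (18.4 to 24.9) and 20.3 (17.1 to 23.8) CPM of Hoxb4, with intervals that overlap, unlike those of day 6.

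Per cell, the highest paralogue group with a UMI put the 5 sets of day 6 in the order of their sums. This order is not independent of the sums. At equal depth, cells with a larger Hox sum have more Hox UMIs and so more chances to reach a high group. The median number of Hox genes found per cell was 8.5 in T-high, 6 in Sox2-high, 5 in Meox1-high and 1 in Twist1-high and Myl7-high cells. After thinning to 5000 UMIs, groups 9 to 13 were reached by 90.9% of T-high cells of day 6 (interval 78.3 to 97.5), 85.3% of Sox2-high (81.0 to 89.0), 76.6% of Meox1-high (72.0 to 80.7), 17.9% of Twist1-high (16.3 to 19.6) and 2.00% of Myl7-high cells (0.961 to 3.64). The interval of T-high cells overlaps those of Sox2-high and Meox1-high cells, and the intervals of the others do not overlap. Cells with fewer than 5000 UMIs were left out here, at most 4 of a set at day 6 and 116, all Myl7-high, of a set at day 11. Group 9 was the highest in 61.2% of Meox1-high cells and 49.8% of Sox2-high cells, group 10 in 47.7% of T-high cells and group 11 in a further 27.3%. At day 11 the shares were 99.4% of Elavl3-high, 94.8% of Sox2-high, 36.3% of Twist1-high, 24.0% of Meox1-high and 3.003% of Myl7-high cells. Group 10 was the highest in 64.4% of Elavl3-high and 64.1% of Sox2-high cells, and group 11 in 0.429% and 0.159%. No Hox UMI was left in 76.1% of Myl7-high cells of day 11 and 46.7% of those of day 6.

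**Figure D5:**
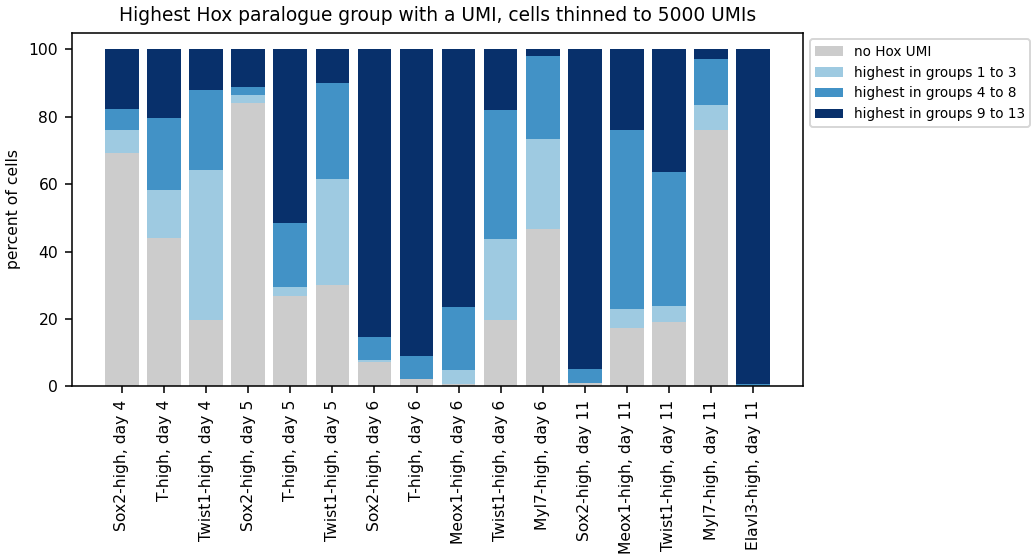
Percent of cells by the highest Hox paralogue group with at least 1 UMI after thinning to 5000 UMIs; each bar is a set of cells high for a marker gene on a day, and colours mark no Hox UMI and the 3 paralogue classes. Groups 9 to 13 fill 90.9% of the bar of T-high cells of day 6 and 2.00% of that of Myl7-high cells.

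The noncoding genes of the clusters followed their neighbours in part. Hoxaas3, which overlaps Hoxa7 on the other strand, was at 650.2 CPM in T-high cells of day 6 against 43.5 and at 7.35 in the whole library of day 11, and Hoxb5os was at 339 in T-high, 265 in Sox2-high and 3.23 in Myl7-high cells of day 6. Hoxb3os, which overlaps Hoxb2 and Hoxb3 on the other strand, did not share the low levels of most coding genes in heart muscle cells. It was at 36.5 CPM in Myl7-high cells of day 6 against 26.5 and at 30.9 at day 11 against 13.7. Of the genes it overlaps, Hoxb2 was not called lower in Myl7-high cells of day 6 either. The strand setting of the counting is not given in the sources used here, so reads of such antisense pairs may not be told apart. Hotair and Hottip were at 0.0134 and 0.00669 CPM at day 6.

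The cofactors were measured beside them. Meis2 was at 292 CPM in Twist1-high and 151 in Myl7-high cells of day 6, and at 518 in Elavl3-high and 96.7 in Myl7-high cells of day 11. In the latter, 5 of 8 cofactors were called lower than in the other cells and 0 higher, beside 20.8% of all features lower. Ezh2, a subunit of the repressive Polycomb complex, was at 385 CPM in Sox2-high and 39.8 in Myl7-high cells of day 11, and 2 of 6 chromatin genes on the list were lower in the latter, where the same 20.8% of features were lower.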

How the data were processed

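Single cells of mouse gastruloids were sequenced with a 10x 3′ kit at days 4, 5, 6 and 11, 1 library per day. The authors deposited UMI counts per gene and barcode (Cell Ranger 3.1.0 per the submitters' processing notes, mm10; the file header of day 11 names a later release); the values are raw counts, not normalized. Library totals ranged from 149169498 to 236714826 UMIs. From these counts, cells were kept with at least 200 genes, at most 20% mitochondrial and at least 5% ribosomal UMIs, and a log UMI total no further than 3 scaled median absolute deviations from that of its library. The 8% with the highest doublet scores, from simulated doublets in 30 principal components, were left out. CPM is the summed UMIs of a gene over the summed UMIs of the same cells. Intervals are exact Poisson for CPM, exact conditional binomial for ratios and Clopper-Pearson for shares, at 95%. A feature was called with a ratio of CPM plus 1 of at least 2 or at most its inverse, among features with at least 1 CPM in either group, and the rule was tested on simulated data. Sets of cells had at least 2 UMIs and 150 CPM of the marker (Myl7 and Myl2 2000, Shox2 500) and values are given for 20 or more cells. Alternatives were every barcode, doublets left in, another UMI limit, the mean over cells, other pseudocounts, limits and thinning depths, and cells of several sets left out. Named genes are the Hox genes, the marker genes and lists of regulators, cofactors, neighbours, chromatin genes and noncoding Hox genes. The members and lists were chosen with earlier results of these data known. A further coding gene of the clusters and 1 further list are not reported here. Gene positions are from GENCODE vM21 and promoter sequences from RefSeq, GRCm38.p6. Python 3.11.15, numpy 2.4.6, scipy 1.17.1 and pandas 2.3.3 were used.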

Additional observations from a re-analysis of the deposited data

Results flagged for a closer look

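Between days 6 and 11 the Hox sum moved in different directions in cells high for different marker genes, which drew attention to it. Each ratio is the CPM of day 11 over that of day 6 from 1 library a day, and the difference between sets was not tested. For all Hox genes the ratio was 1.21 (interval 1.19 to 1.23) in Sox2-high, 1.55 (1.52 to 1.58) in Twist1-high, 0.468 (0.436 to 0.503) in Meox1-high and 0.391 (0.368 to 0.415) in Myl7-high cells. For groups 4 to 8 it was 1.21, 1.78, 0.526 and 0.657. For groups 9 to 13 it was 1.31, 3.04, 0.306 and 3.404, where the Myl7-high cells started from 4.38 CPM at day 6. No interval is given for this last ratio. The Hox sums of Myl7-high cells were higher on both days with every deposited barcode used. The part of free RNA and of doublets in the ratio of these cells was not tested. Meox1-high cells carried 4 of 6 somite markers at day 6 and 1 of 6 at day 11, and the part of this in the ratio was not tested.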

How the results depend on the processing

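No paired analysis was possible because each day is 1 library. Day sums of Hox CPM at days 4, 5 and 11 were 306, 297 and 669 with every deposited barcode and 320.3, 309 and 757 with a tighter limit on UMIs per cell; averaged over cells with equal weight, days 4, 5, 6 and 11 were at 328, 316, 735 and 842. Hox genes higher at day 5 than at day 4 numbered 5 with 0.1 added to the CPM and 0 with 5 added, and 1 was lower with 5 added. At day 11 against day 6, 0 were higher with 5 added, 0 with every barcode and 3 with the mean over cells, and 3 were lower with 5 added. Meox1-high cells of day 11 had 2 genes higher at 0.5 times the limit, 8 at 2 times and 2 with cells of several sets left out, where the log2 ratio of Hoxd1 was -0.65. Twist1-high cells of day 11 had 5 higher at 2 times the limit and 5 lower with the mean over cells. Shares of cells with a Hox UMI at days 4, 5, 6 and 11 were 46.0%, 46.7%, 70.3% and 60.8% when thinned to 3000 UMIs, and 71.3%, 75.2%, 90.6% and 73.5% when thinned to 10000. The Hox sum of Sox2-high cells of day 5, 112 CPM, was 74.9 at 2 times and 283 at 0.5 times the limit. That of Myl7-high cells was 298 at day 6 and 155.1 at day 11 with every barcode. With Dppa5a-high cells left out, an alternative chosen after seeing the data, 18 Hox genes were higher in Sox2-high cells of day 6. Of the log2 ratios of named Hox genes under the alternatives, 1266 kept their direction and side of the 2-fold limit. In 57 only the direction was kept, and 1 reversed. Sums and shares were less stable. Of the day sums, 10 moved outside the counting interval of the main value and 6 did not. Sums of marker sets moved in 72 cases and stayed in 35, and shares of cells in 31 and 7. Levels of single genes moved in 158 and stayed in 450, and counts of called genes in 12 and 130. The causes were not tested. With 1 library per day, depth and counting intervals do not cover the spread between cultures, and a gene at 0 UMIs is limited only to 3 UMIs of the set's total.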
